A study of Mus musculus with 4 samples.

Results

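Annexins are calcium-dependent membrane-binding proteins, and 10 of their genes were followed here in mouse lung tumours: Anxa1, Anxa2, Anxa3, Anxa4, Anxa5, Anxa6, Anxa7, Anxa8, Anxa10 and Anxa11. They were taken by symbol from the 24391 genes listed for each sample, and all 10 passed the count filter that 16001 genes passed. The list, and the setting apart of Anxa10 and Anxa8 from the broadly expressed annexins, were chosen on read counts of the same comparison between tumour groups. The differences between groups given for these 10 genes are therefore a description. Where calls by the fits are printed for them, they are not offered as tests.

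The study compared tumours labelled K-Ras, which carried the K-Ras LSL-G12D allele (a mutant K-Ras gene silent until Cre removes a stop cassette), with tumours labelled K-Ras Mll4-/-, which carried K-Ras LSL-G12D and the Mll4 fl/fl alleles. Each group held 2 samples, all from lung, and the activated K-Ras allele was common to both groups. Mll4, now called Kmt2d, encodes an enzyme that methylates histones at enhancers. The source and cell specificity of Cre, the age and strain of the mice and any pooling are not given in the sources used here, nor is it stated that the samples came from separate mice, so the spread between replicates may be partly technical.

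An annexin is built from a conserved core that binds negatively charged phospholipids when calcium is present, joined to a variable head that carries the binding sites for partner proteins such as the S100 family. Through this core annexins gather at the inner face of the plasma membrane and on vesicles, where they take part in membrane repair, exocytosis and links to the actin cytoskeleton. Most are made in many tissues. Anxa10 is known from the epithelium of the stomach, and its core has lost most calcium-binding sites, while Anxa8 is known from squamous and other specialised epithelia.

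Reads assigned to genes numbered 26683033 to 36677987 per sample, so the 3 reads used as a detection floor correspond to 0.0830 to 0.114 CPM. CPM is the usual depth-scaled read count (counts per megaread), here with library sizes adjusted by edgeR's TMM factors. Kmt2d stood at 367 and 317 CPM in the K-Ras Mll4-/- samples and at 395 and 526 CPM in the K-Ras samples. A count over the whole gene does not show whether exons were deleted, so the genotype rests on the labels. The surfactant and other markers of alveolar type 2 cells, a cell type of lung epithelium, were abundant, with a summed level of 17504 to 29131 CPM over 8 genes. Ptprc, the gene of CD45, against which the cells had been depleted, was still at 143 to 274 CPM.

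The promoters of Anxa10, Anxa8 and Anxa2 are shown because these genes stood at different levels in K-Ras tumours. Anxa10 was nearly silent there, Anxa8 was intermediate and Anxa2 was the most abundant annexin in every sample. Anxa13 ranked below Anxa10 in every sample and had no promoter entry. Each window runs from 250 bases before to 50 bases after the start site, 5′ to 3′ on the gene's strand, as RefSeq gives it for GRCm38.p6. Anxa10 lies at chr8:62123144-62123443 on the minus strand, Anxa8 at chr14:34085729-34086028 on the plus strand and Anxa2 at chr9:69453433-69453732 on the plus strand. Capitals mark matches to the motifs listed after the sequences.

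Anxa10 promoter: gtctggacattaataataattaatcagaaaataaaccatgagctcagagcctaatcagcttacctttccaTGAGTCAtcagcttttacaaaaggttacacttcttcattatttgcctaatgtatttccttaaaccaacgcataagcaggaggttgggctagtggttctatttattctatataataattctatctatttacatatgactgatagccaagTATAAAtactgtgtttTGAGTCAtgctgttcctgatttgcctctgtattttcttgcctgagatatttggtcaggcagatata

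Anxa8 promoter: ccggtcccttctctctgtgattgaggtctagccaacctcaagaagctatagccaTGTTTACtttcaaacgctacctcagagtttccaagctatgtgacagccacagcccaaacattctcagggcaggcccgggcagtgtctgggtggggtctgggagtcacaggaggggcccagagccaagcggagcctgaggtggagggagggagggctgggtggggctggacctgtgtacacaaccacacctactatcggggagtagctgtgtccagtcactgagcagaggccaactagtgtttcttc

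Anxa2 promoter: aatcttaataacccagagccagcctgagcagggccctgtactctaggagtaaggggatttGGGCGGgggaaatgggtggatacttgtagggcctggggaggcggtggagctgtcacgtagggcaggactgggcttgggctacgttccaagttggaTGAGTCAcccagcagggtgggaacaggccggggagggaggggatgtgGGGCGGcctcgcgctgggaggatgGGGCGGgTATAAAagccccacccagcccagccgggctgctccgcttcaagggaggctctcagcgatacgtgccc

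Motifs were searched on both strands as TATAAA for the TATA box, GGGCGG for the GC box, TGANTCA for AP-1, CACGTG for the E-box, AGATAA for GATA factors, TGTTTNC for forkhead factors, CAAAGTCCA for HNF4, CCGGAAGT for ETS factors and GGAATG for TEAD factors. The Anxa10 window held 1 TATA box, beginning at position -32 from the start site, and 2 matches to AP-1, beginning at -180 and -16. Over all 32851 promoter windows in the RefSeq table, 13.6% held the TATA letters, 7.81% held at least 1 AP-1 match and 0.46% held 2 or more. The Anxa2 window held 1 AP-1 match at -95, 1 TATA box at -17 and 3 GC boxes, which 35.7% of windows contain at least once. The Anxa8 window held 1 forkhead match at -196, found in 20.5% of windows. No matches overlapped each other in these windows. A match is a run of letters and not a measured binding site.

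Base composition also differed among the 3 promoters. The Anxa10 window was 34.3% G and C and contained 1 CpG dinucleotide, and 94.6% of all windows contained at least as many. The Anxa8 window was 57.3% G and C with 5 CpG, and the Anxa2 window 63.7% with 13 CpG, against a median of 7 over all windows. Of 12 annexins, 9 had an entry among these windows, counting Anxa9 and Anxa13. Anxa3, Anxa6 and Anxa13 had none. Among the broadly expressed genes Anxa11 had 25 CpG, Anxa5 had 16 and Anxa1 had 3, so CpG content was not uniformly high in them. Anxa4 had windows with 20 and 3 CpG, Anxa7 with 4 and 19, and the weakly expressed Anxa9 with 36 and 3. A link between base composition and level was not tested.

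To compare annexins, reads were scaled by the length of each gene's longest protein-coding GENCODE M21 transcript (RPKM). In K-Ras tumours Anxa2 was the most abundant annexin, at 372 ± 34.7 RPKM (SD, n = 2). Anxa2 is a membrane and actin organiser that works with S100a10. Next came Anxa5, which binds phosphatidylserine exposed on cell surfaces, at 181 ± 13.7 RPKM (SD, n = 2), then Anxa3 and Anxa1, whose ranges overlapped. Anxa4 (113 RPKM), Anxa6 (91.4), Anxa7 (52.5) and Anxa11 (27.0) followed in that order with no overlap between neighbours. Anxa8, at 10.6 and 31.7 RPKM in the single samples, overlapped Anxa11. Anxa9 (1.97 RPKM) and Anxa10 (0.477 RPKM) stood far below, and Anxa10 overlapped Anxa13, the lowest.

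In K-Ras Mll4-/- tumours Anxa2 was again first, at 728 ± 79.0 RPKM (SD, n = 2), and Anxa1 stood in the second place at 309 ± 70.4 RPKM (SD, n = 2), above Anxa5 in both samples. Anxa10 reached 25.0 and 54.9 RPKM, overlapping Anxa8 (39.02 and 73.8 RPKM) and Anxa11 (34.5 and 38.5 RPKM). Anxa10, which stood eleventh of 12 annexins in both K-Ras samples, was thus within the range of established family members in this group. The order rests on the chosen transcript lengths, from 1201 to 2904 bases.

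**Figure D1:**
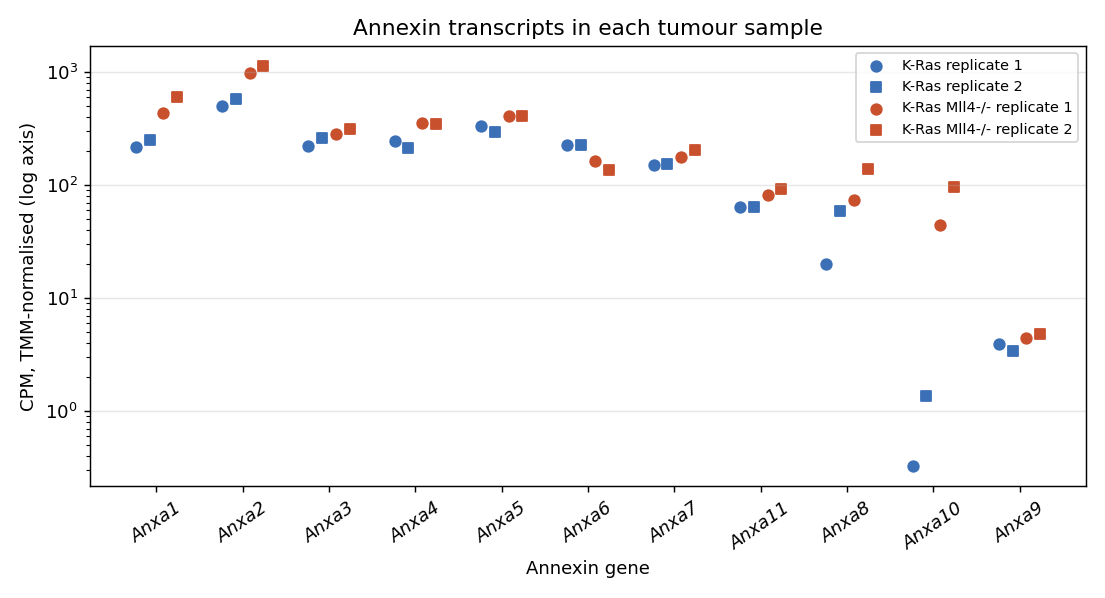
TMM-normalised CPM (log axis) of 11 annexins in each of the 4 samples, with circles for replicate 1 and squares for replicate 2, blue for K-Ras and red for K-Ras Mll4-/-. Anxa10 spans 0.327 to 96.8 CPM, and Anxa6 is the gene whose red points lie below the blue ones.

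Anxa10 differed most between the groups. It had 10 and 49 reads in K-Ras replicates 1 and 2, or 0.327 CPM (95% exact Poisson interval 0.157 to 0.601, counting error only) and 1.36 CPM (1.00 to 1.79). In K-Ras Mll4-/- replicates 1 and 2 it had 1158 and 3122 reads, or 44.1 and 96.8 CPM. The groups did not overlap, and the lower K-Ras Mll4-/- sample was far above the higher K-Ras sample. The means were 0.841 ± 0.727 and 70.5 ± 37.3 CPM (SD, n = 2 each), with a fitted log2 fold change of 6.35 (SE 0.80) in edgeR. All K-Ras counts exceeded the floor of 3 reads, so the fold is a ratio of detected levels, although a denominator of 10 and 49 reads leaves its size imprecise. Leaving out single samples moved it between 5.68 and 7.72. In such mixtures of digested and CD45-depleted cells, more cells that make a transcript and more transcript per cell cannot be told apart. This holds here and for any gene that follows.

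Anxa8 was the second furthest apart. It stood at 19.9 and 59.6 CPM in K-Ras replicates 1 and 2 and at 73.4 and 139 CPM in K-Ras Mll4-/- replicates 1 and 2. The groups did not overlap, yet K-Ras replicate 2 was closer to K-Ras Mll4-/- replicate 1 than to its own replicate. The log2 fold change was 1.41 (SE 0.62). It was 0.83 without K-Ras replicate 1, 0.87 without K-Ras Mll4-/- replicate 2 and 2.40 without K-Ras replicate 2, so its size depended on which sample was present.

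Anxa10 and Anxa8 also varied more between replicates than the broadly expressed annexins did. In the K-Ras group the higher sample exceeded the lower by 4.15 times for Anxa10 and 2.99 times for Anxa8, against 1.00 to 1.18 times for the 8 others. Across all genes tested with a read in the group, the median of this ratio was 1.22, and 6.37% of genes had a ratio at least as large as that of Anxa8. In the K-Ras Mll4-/- group the ratios were 2.20 and 1.89, against 1.01 to 1.38 for the 8 others. In both groups replicate 2 was the higher for both genes. It was also the higher for the squamous list in both groups, 15.8 against 7.22 CPM in K-Ras. The same held for the gastric, mesothelial, alveolar type 1, alveolar type 2 and ciliated lists, so this was not particular to squamous markers. The immune list ran the other way in both groups, and the club, endothelial and fibroblast lists differed in direction between groups. The part of any list in the spread was not tested.

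Among the broadly expressed members, 7 of 8 had higher levels in both K-Ras Mll4-/- samples than in both K-Ras samples. That arrangement was shown by 29.9% of all genes tested, and the members were chosen on these same counts. Anxa1, a phospholipase-inhibiting protein that also signals through formyl peptide receptors, was at 216 and 251 CPM in K-Ras and at 434 and 601 CPM in K-Ras Mll4-/- replicates 1 and 2. The difference was 1.15 (SE 0.23) as a log2 fold change. Anxa2 stood at 503 and 574 CPM in K-Ras and at 973 and 1135 CPM in K-Ras Mll4-/-, a log2 fold change of 0.97 (SE 0.19). For both genes the gap between groups was wider than the spread within either group.

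Anxa4, an annexin of secretory epithelia, was at 245 and 213 CPM in K-Ras and at 358 and 345 CPM in K-Ras Mll4-/-, a log2 fold change of 0.62 (SE 0.15). The other 4 differed less. Anxa11, which links RNA granules to lysosomes and binds S100a6, had a log2 fold change of 0.44 (SE 0.12), and Anxa5 had 0.38 (SE 0.15). Anxa7, the membrane-fusing protein first named synexin, had a log2 fold change of 0.32 (SE 0.14). Anxa3, which is also found in alveolar type 1 cells, had the smallest difference, with 224 and 263 CPM in K-Ras, 282 and 314 CPM in K-Ras Mll4-/- and a log2 fold change of 0.29 (SE 0.16).

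Anxa6 was the exception in direction. This annexin, whose core is duplicated, stood at 228 and 227 CPM in K-Ras and at 164 and 135 CPM in K-Ras Mll4-/- replicates 1 and 2. Both K-Ras Mll4-/- samples were below both K-Ras samples, and the log2 fold change was -0.61 (SE 0.16), or -0.75 to -0.49 with single samples left out. Endothelial and fibroblast markers stood lower in the same samples, with negative log2 fold changes for 6 of 7 and 7 of 8 genes and none at 0 reads in a group. Among all 16001 genes, 7811 were positive. The ciliated and club lists were also negative, for 7 of 7 and 4 of 4 genes. The 7 endothelial genes summed to 4224 and 4455 CPM in K-Ras and 3190 and 2479 CPM in K-Ras Mll4-/-, and the 8 fibroblast genes to 2615 and 1195 CPM against 917 and 923 CPM. The part of any of these lists in the Anxa6 difference was not tested.

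**Figure D2:**
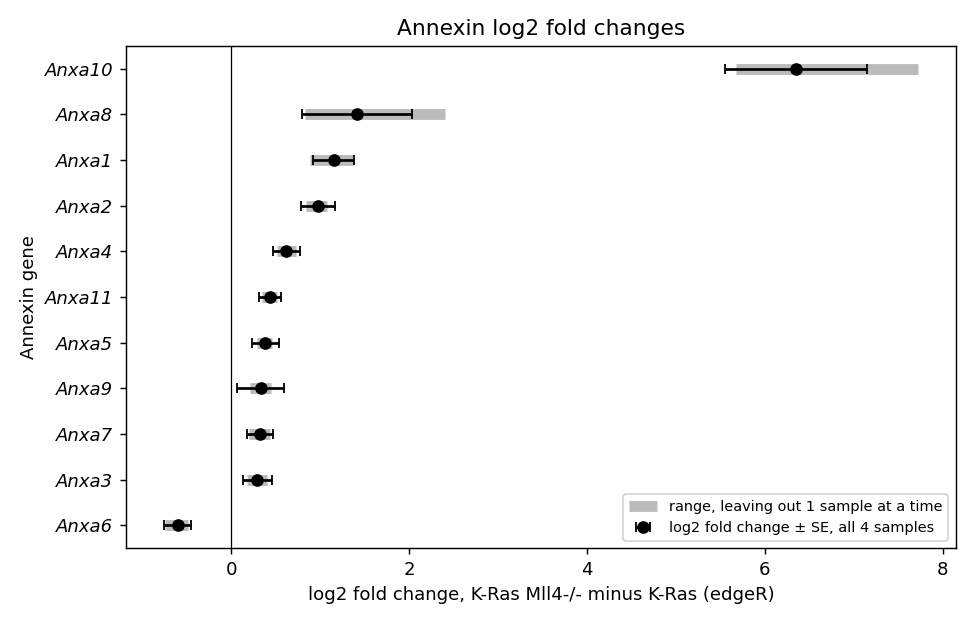
Log2 fold change, K-Ras Mll4-/- minus K-Ras, for 11 annexins from the edgeR fit over all 4 samples (points, with SE as bars) and the range obtained by leaving out each sample in turn (grey). Anxa10 stands at 6.35, Anxa8 at 1.41 and Anxa6, alone below 0, at -0.61.

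Counted together, 9 of the 10 members had both K-Ras Mll4-/- samples above both K-Ras samples, an arrangement shown by 29.9% of all genes tested, and 1 had both below, as did 28.5% of all genes. The median log2 fold change of the 10 was 0.53, and that of the 8 broadly expressed genes 0.41, against -0.01 over all 16001 genes. By the edgeR quasi-likelihood test with Benjamini-Hochberg adjustment 0 of the 10 were called at an adjusted p under 0.05, where 6 genes (0.0375%) were called in all. Without K-Ras replicate 1 that test called 524 genes, Anxa10 among them, and without any of the other samples it called 0. At an unadjusted p under 0.05 there were 6 of the 10, with 21.8% of all genes below that value. DESeq2 called 5 of the 10, namely Anxa1, Anxa2, Anxa4, Anxa6 and Anxa10, and 10.0% of all genes. Since the members were chosen with this contrast known, these calls are not tests of them. Nothing is read from the calls or from the shares.

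The make-up of the annexin pool differed with the levels. Anxa2 accounted for 31.2% and 33.2% of the summed annexin RPKM in K-Ras replicates 1 and 2 and for 38.4% in each K-Ras Mll4-/- sample. Anxa6 took 8.25% and 7.64% in K-Ras and 3.77% and 2.66% in K-Ras Mll4-/-. Anxa10 contributed 0.0167% and 0.0644% in K-Ras and 1.43% and 2.69% in K-Ras Mll4-/-, so even there it was a small part of the pool. Before scaling by length, the 12 annexins summed to 1986 and 2109 CPM in K-Ras and to 3002 and 3474 CPM in K-Ras Mll4-/-, of which the 8 broadly expressed genes supplied 1961 and 2045 CPM and 2880 and 3234 CPM.

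**Figure D3:**
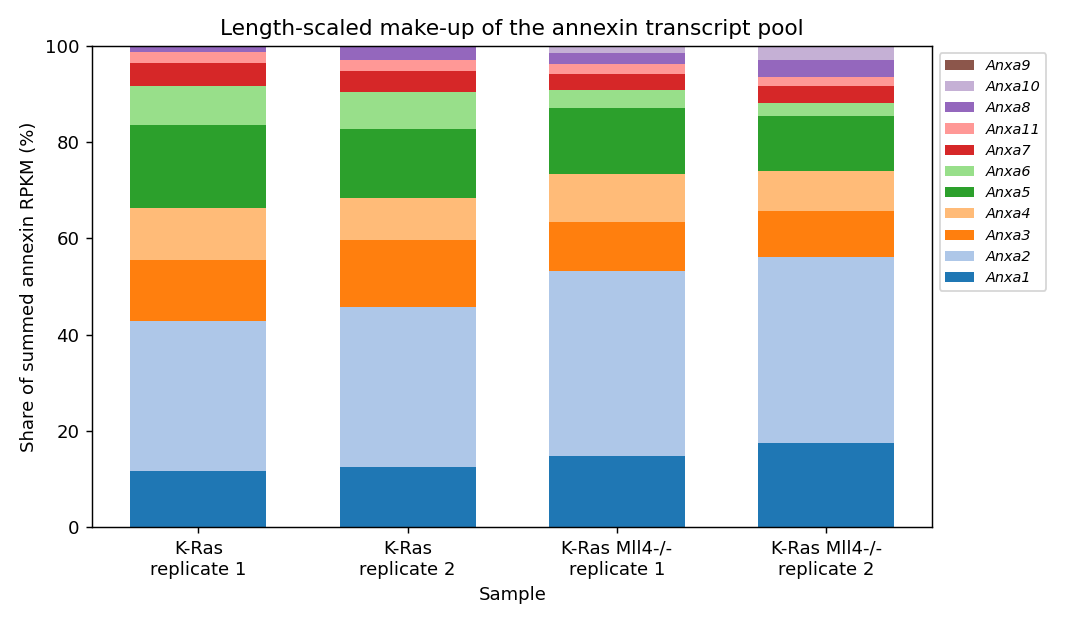
Share of each of 11 annexins in the summed RPKM of the family (stacked bars, per cent) for each sample. Anxa2 takes 31.2% to 38.4%, the Anxa6 band is narrower in the K-Ras Mll4-/- samples, and Anxa10 is visible there at 1.43% and 2.69%.

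The remaining family members were low. Anxa9, an annexin with altered calcium-binding sites, was at 3.96 and 3.40 CPM in K-Ras and 4.42 and 4.81 CPM in K-Ras Mll4-/-, and its difference did not pass the test (log2 fold change 0.33, SE 0.27, edgeR adjusted p = 0.511). Anxa13, known from the intestinal epithelium, did not pass the count filter. It had 4 and 10 reads in K-Ras and 0 and 3 reads in K-Ras Mll4-/-, where the floor of 3 reads corresponds to 0.114 CPM in the sample with 0 reads. The gene models of Anxa2, Anxa4, Anxa9 and Anxa11 overlap exons on the opposite strand, and Anxa3 and Anxa9 overlap others on their own strand, in GENCODE M21. The strand setting of the counts is not given in the sources used here, so reads of such pairs cannot be told apart.

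Marker lists were read beside the family. The 11 gastric epithelium genes summed to 41.8 and 46.1 CPM in K-Ras and to 792 and 1028 CPM in K-Ras Mll4-/- replicates 1 and 2, the same arrangement as Anxa10. Of the 10 that were tested, 1 was called higher by edgeR and 0 lower, beside 0.0375% of all genes called. All 10 had positive log2 fold changes, from 0.020 to 12.2, beside 7811 of all 16001 genes. In 8 of the 10 both K-Ras Mll4-/- samples lay above both K-Ras samples, beside 29.9% of all genes. Gkn1 and Tff1 were at 0 reads in both K-Ras samples. The 10 squamous epithelium genes summed to 7.22 and 15.8 CPM in K-Ras and to 51.6 and 147 CPM in K-Ras Mll4-/-, the same order of the 4 samples as for Anxa8 and Anxa10. The sum was not spread evenly over the list. In K-Ras Mll4-/- replicate 2 it was mostly Trp63 and Krt14, whose levels are given under the other observations. Of the 8 squamous genes tested, 7 had positive log2 fold changes and 4 had both K-Ras Mll4-/- samples above both K-Ras samples, an arrangement found for 29.9% of all genes. Sprr1b was at 0 reads in every sample and Dsg3 in both K-Ras samples. The part of cells carrying these markers in the Anxa10 and Anxa8 differences was not tested.

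Other lists differed less or in other directions. The immune list, 9 genes, summed to 1070 and 418 CPM in K-Ras and 1057 and 574 CPM in K-Ras Mll4-/-, so the groups overlapped. The 8 alveolar type 1 genes summed to 1415 and 2001 CPM in K-Ras and 2013 and 2184 CPM in K-Ras Mll4-/-, so the sums did not overlap but nearly met, and 6 of 8 genes had positive log2 fold changes. Its part in the difference of Anxa3, which such cells also make, was not tested. The 7 ciliated genes summed to 129 and 765 CPM in K-Ras replicates 1 and 2 and to 68.4 and 77.4 CPM in K-Ras Mll4-/-, and all 7 were lower in both K-Ras Mll4-/- samples than in both K-Ras samples, beside 28.5% of all genes. The 4 club genes summed to 702 and 3587 CPM in K-Ras and to 743 and 565 CPM in K-Ras Mll4-/-, so the groups overlapped and K-Ras replicate 2 stood apart. The mesothelial list summed to 22.3 and 23.3 CPM in K-Ras and 124 and 224 CPM in K-Ras Mll4-/-. Nearly all of that gap was Msln, at 120 and 221 CPM in the latter, while 3 of the 7 genes did not pass the count filter and the other 3 had negative log2 fold changes.

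**Figure D4:**
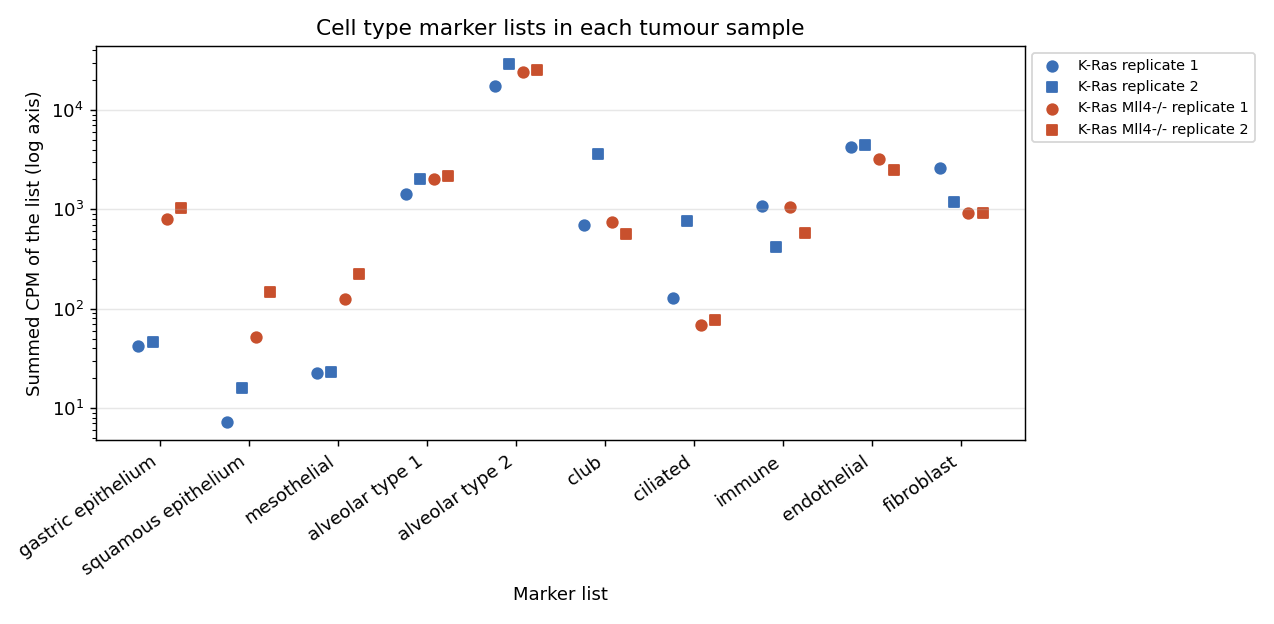
Summed CPM (log axis) of 10 cell type marker lists in each of the 4 samples, circles for replicate 1 and squares for replicate 2, blue for K-Ras and red for K-Ras Mll4-/-. Gastric and squamous epithelium lists are higher in both K-Ras Mll4-/- samples, the immune list overlaps, the ciliated list is lower in both K-Ras Mll4-/- samples, and ciliated and club lists are highest in K-Ras replicate 2.

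Genes of annexin partners were compared next, from 5 lists that hold 23 genes and were written from textbook knowledge of what annexins bind or share functions with. Of these, 21 passed the count filter. By edgeR 0 of the 21 were called in either direction at an adjusted p under 0.05, as against 0.0375% of all genes. An unadjusted p under 0.05 was found for 4 of the 21 and for 21.8% of all genes. DESeq2 called 3 of the 21, all higher, and 10.0% of all genes, so these counts lay near the background and are no result about the partners. The median log2 fold change was 0.30 and 17 of 21 were positive, beside a median of -0.01 and 7811 positive among all 16001 genes. In 9 of the 21 both K-Ras Mll4-/- samples lay above both K-Ras samples, beside 29.9% of all genes, and in 0 both lay below, beside 28.5%.

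S100a6, or calcyclin, which binds Anxa2, Anxa6 and Anxa11, had the largest difference among the partners. It was at 95.7 and 113 CPM in K-Ras and at 319 and 388 CPM in K-Ras Mll4-/-, 1.76 higher on the log2 scale (SE 0.18). It was not called in the main comparison (edgeR adjusted p = 0.116), but DESeq2 called it (adjusted p = 6.97e-12). S100a11, the partner of Anxa1, was at 44.3 and 48.2 CPM in K-Ras and at 75.8 and 100.03 CPM in K-Ras Mll4-/-, 0.93 higher on the log2 scale (SE 0.18). Its adjusted p was 0.147 by edgeR and 0.00606 by DESeq2. A processed pseudogene of S100a11 exists, and reads with more than 1 alignment were not assigned, so its level may be understated.

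S100a10, the partner of Anxa2, differed less than Anxa2 itself, with 86.9 and 69.5 CPM in K-Ras and 103 and 102 CPM in K-Ras Mll4-/-. It was 0.39 higher on the log2 scale (SE 0.15), with an edgeR adjusted p of 0.242, and the difference between the fold changes of the pair was not tested. Ahnak, a giant scaffold protein held at the membrane by Anxa2 and S100a10, was at 2672 and 3221 CPM in K-Ras and at 3204 and 3147 CPM in K-Ras Mll4-/-, so the groups overlapped (log2 fold change 0.11, SE 0.22, edgeR adjusted p = 0.801). S100a4, a marker of motile and immune cells, had 48.1 and 14.2 CPM in K-Ras, a range that enclosed both K-Ras Mll4-/- samples (33.8 and 23.9 CPM). The fitted log2 difference of -0.11 (SE 0.61) had an edgeR adjusted p of 0.932 and became 1.02 without K-Ras replicate 1. The S100a4 gene model overlaps exons of Gm42674 on the same strand in GENCODE M21, so reads of this pair cannot be told apart.

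In the other 4 partner lists Myof, which encodes the membrane repair protein myoferlin, was the gene called by DESeq2 (adjusted p = 0.00253). It stood at 382 and 371 CPM in K-Ras and 599 and 649 CPM in K-Ras Mll4-/-, 0.73 higher on the log2 scale (SE 0.16), with an edgeR adjusted p of 0.156. In the membrane repair and lipid list 6 of 7 log2 fold changes were positive, with a median of 0.30, and among calcium sensors 3 of 3, from 0.00 to 0.35. Of the 4 plasminogen system genes tested, 2 had positive and 2 negative log2 fold changes, from -0.20 to 0.43. Plg and Fpr3 did not pass the count filter. Fpr1 and Fpr2, receptors for Anxa1, had 20.98 and 8.06 CPM and 8.49 and 3.69 CPM in K-Ras Mll4-/- replicates 1 and 2. In K-Ras replicates 1 and 2 they had 13.2 and 6.06 CPM and 3.24 and 2.79 CPM. Replicate 1 was thus the higher in CPM in each group, as for the immune list, whose part was not tested. For Fpr2 in K-Ras the replicates were nearly level, at 99 and 101 reads. The groups did not overlap for Fpr2, with K-Ras Mll4-/- higher, as for 29.9% of all genes, but overlapped for Fpr1 and the immune list.

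**Figure D5:**
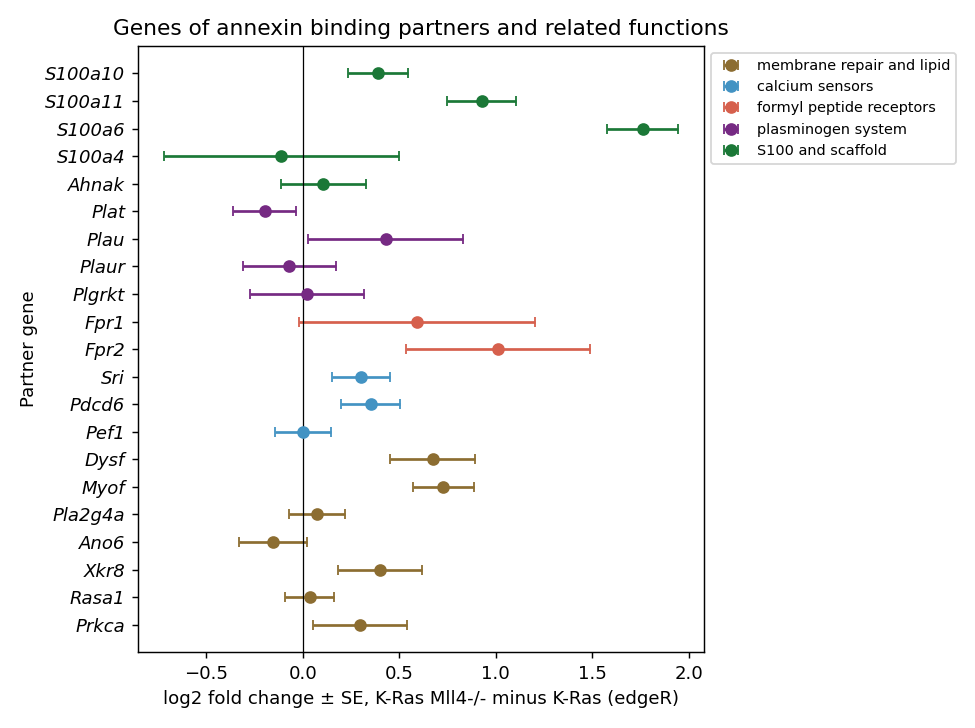
Log2 fold change, K-Ras Mll4-/- minus K-Ras, with SE, for the 21 partner genes that passed the count filter, coloured by list. S100a6 stands furthest to the right at 1.76, S100a11 is at 0.93, and the plasminogen system genes lie around 0.

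The genes whose levels followed Anxa10 most closely over the 4 samples were Synpr, Dpcr1, Gcnt3, Chst4 and Pkp1, in that order. Likeness was measured as the root mean square difference in centred log2 CPM, which ran from 0.43 to 0.55 for them. Synpr, a synaptic vesicle protein gene, was at 0.0327 and 0.304 CPM in K-Ras and 23.1 and 32.4 CPM in K-Ras Mll4-/-, and its first value is below the floor of 3 reads. Dpcr1, which encodes a mucin-like protein, was at 2.06 and 3.18 CPM in K-Ras and 139 and 235 CPM in K-Ras Mll4-/-. Gcnt3, an enzyme that branches mucin glycans, was at 1.27 and 2.35 CPM in K-Ras and 111 and 129 CPM in K-Ras Mll4-/-. Chst4, a glycan sulfotransferase gene, and Pkp1, which encodes a desmosome plaque protein, reached 10.2 to 18.6 and 23.7 to 35.3 CPM in K-Ras Mll4-/-. In K-Ras samples all 5 were at or below 3.18 CPM.

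The genes most like Anxa8 were Gzmk, Ckmt1, Btc, Ptgs2os2 and Ffar4, with differences from 0.06 to 0.12. Ckmt1, a mitochondrial creatine kinase gene, was at 18.9 and 53.5 CPM in K-Ras and 66.5 and 142 CPM in K-Ras Mll4-/-, close to the levels of Anxa8 in each sample. Btc, a ligand of the epidermal growth factor receptor, was at 4.45 and 15.5 CPM in K-Ras and 17.8 and 32.8 CPM in K-Ras Mll4-/-. Ffar4, a fatty acid receptor gene, and Ptgs2os2, a transcript next to Ptgs2, kept the same order of samples. Gzmk was below 1 CPM in every sample, so its likeness rests on few reads. With 4 samples these names are a description.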

How the data were processed

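RNA was sequenced from 4 mouse lung tumour samples, digested to single cells, cleared of red blood cells and depleted of CD45-positive cells, per the labels' protocols. Each deposited file lists 1 sample's raw counts by gene. The authors used CASAVA 1.4, STAR and HTSeq with the mm9 build, per the submitters' processing notes. The annotation and strand setting are not given in the sources used here. Lines that name no gene held 60.1% to 65.6% of the tallied reads and were left out.

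Counts were filtered (filterByExpr, 16001 of 24391 genes kept), scaled by TMM and fitted with edgeR 4.0.16 in R 4.3.3 (robust quasi-likelihood test, group only, Benjamini-Hochberg over all genes, called at an adjusted p under 0.05). The SE is the log2 fold change divided by the root of F. With 2 samples a group, 2 residual degrees of freedom remain per gene. The quasi-likelihood fit supplements them with dispersion information shared across all genes. The p-values thus do not rest on each gene's own spread alone, and they cover no spread beyond these samples. DESeq2 1.42.0 was an alternative, as were 3 scalings, no count filter, a replicate block, leaving out single samples and, added after seeing the data, GC and length offsets (mgcv 1.9.3, 15869 genes matched to GENCODE M21). The fits were also run on simulated counts with the same dispersion for all genes and planted changes of a single size. That setting is simpler than these data, so it does not show how the fits behave on them.

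The members and lists were chosen with earlier results of these data known. Named were all annexins, the S100 and scaffold list, any other partner called by edgeR, and the 5 genes most like Anxa10 and Anxa8 among those kept (prior count 2). Myof, Plg, the Fpr genes, Gkn1, Tff1, Sprr1b, Dsg3, Msln, Trp63, Krt5 and Krt14 were named after their values were seen.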

Additional observations from a re-analysis of the deposited data

How the results depend on the processing

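Directions of the 10 annexin members held under every alternative run: 9 were positive and Anxa6 negative. The runs were 3 other scalings, no count filter, DESeq2, GC and length offsets, the replicate block and leaving out each single sample. The members were chosen on these same counts, and none overlapped between groups. Stable signs were thus nearly fixed in advance and are no added support. The same limit holds for the calls of members given below. Against 6 genes called in all, 44 were called without the count filter, 1601 by DESeq2 and 217 with the replicate number as a block, and between 0 and 524 when single samples were left out (524 without K-Ras replicate 1, of which 417 were lower, and 0 without each of the others). Against 0 annexin members called, DESeq2 called 5, the replicate block 1 (Anxa10, log2 fold change 6.47), and single-sample omission 0 to 1, again Anxa10 without K-Ras replicate 1. Against 0 partner genes, 1 was called without the count filter, 3 by DESeq2, 1 with the replicate block and 0 to 1 without single samples. S100a6 was among those called in each of these settings. The cause of these differences was not tested. The log2 fold change of S100a4 reversed to 0.11 with the replicate block and ran from -0.76 to 1.02 without single samples, and that of Ahnak reversed to -0.020 without K-Ras replicate 1, in a range of -0.020 to 0.23. Replicates of the same number are not stated to share anything, and their deviations from the group means correlated at 0.21 across genes. An exact permutation test of 2 against 2 samples cannot give a two-sided p below 0.333. Depth limits the genes with few reads, among them Anxa10 in K-Ras samples and Anxa13.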

Other observations

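The protein-coding genes next to Anxa10 and Anxa8 in the RefSeq order, chosen after the values were seen, were also read. Beside Anxa10, Ddx60 was at 14.8 and 11.5 CPM in K-Ras and 10.8 and 7.26 CPM in K-Ras Mll4-/-, a log2 difference of -0.55 (SE 0.28) with an edgeR adjusted p of 0.325, against 6.35 for Anxa10. Its other neighbour, Spock3, had 4 and 2 reads in K-Ras and 2 and 24 reads in K-Ras Mll4-/-. Beside Anxa8, Npy4r had 1 and 15 reads in K-Ras and 8 and 69 reads in K-Ras Mll4-/-, a log2 difference of 2.40 (SE 1.34) with an edgeR adjusted p of 0.352, and Antxrl had 1 and 6 reads in K-Ras and 0 and 29 reads in K-Ras Mll4-/-. For both, replicate 2 was the higher in each group, as it was for Anxa8.

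Squamous genes were uneven within their list. Trp63, the basal cell transcription factor, was at 1.60 and 4.48 CPM in K-Ras and 18.5 and 88.6 CPM in K-Ras Mll4-/-, while Krt5, a keratin it is usually found with, was between 0.262 and 2.06 CPM in all 4 samples. Krt14 had 0 and 0.0553 CPM in K-Ras and 7.04 and 34.7 CPM in K-Ras Mll4-/-. These genes were singled out after their values were seen. Their edgeR adjusted p was 0.166 for Trp63, 0.422 for Krt5 and 0.138 for Krt14.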
